A study of Mus musculus with 6 samples.

Results

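The genes described here are 9 complement components and regulators, C1qa, C1qb, C1qc, C3, C4b, Cfb, Cfp, Cd55 and Serping1, chosen by gene symbol from the 21936 genes in the study's expression tables. All 9 symbols were found once in each of the 6 tables. RNA was sequenced from sorted mouse macrophages in 3 libraries labelled CKO and 3 libraries labelled WT. The CKO label stands for ALKBH5flox/flox, Lyz2-Cre, APOE-/- mice, in which Cre recombinase under the Lyz2 gene, active in macrophages and other myeloid cells, should remove the RNA demethylase gene Alkbh5. The WT label stands for ALKBH5flox/flox, APOE-/- mice without Cre. By these labels both groups share loxP-flanked Alkbh5 and the Apoe knockout, and both ate a high-fat diet for 4 months. The tissue the macrophages came from, the sort markers, the age of the mice and whether animals were pooled are not given in the sources used here. Since no label ties the libraries to separate mice, a p-value here reflects variation among 3 libraries per label and that variation may be technical.

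Complement is a cascade of blood and tissue proteins that tags particles for uptake by phagocytes and can form pores in membranes. The classical pathway begins when C1q, built from the chains of C1qa, C1qb and C1qc, binds antibody or other ligands, and the proteases C1r and C1s then cleave C4 and C2. The alternative pathway runs on C3, factor B and properdin. Regulators such as CD55 and the C1 inhibitor restrain these steps. Macrophages are a main source of C1q, whereas the liver makes most of the C3, C4 and factor B of blood plasma.

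The targeted genes were read first, since they check the labels. Alkbh5 went against the label, at 9.15, 8.61 and 8.50 FPKM (reads per kilobase of gene length, scaled to the reads assigned to genes) in the libraries labelled CKO, against 3.77, 3.95 and 3.88 FPKM in those labelled WT. Apoe, by the labels a knockout in both groups, was at 89.6, 97.3 and 98.1 FPKM in the CKO-labelled libraries, against 1665, 1632 and 1607 FPKM in the WT-labelled ones. Gene-level values cannot show whether a transcript was intact. Directions below therefore follow the labels, and the genotypes behind them were not checked. The libraries held 15422154 to 17802617 reads labelled CKO and 16660206 to 18418903 labelled WT. All 10 macrophage markers examined, among them Csf1r and Adgre1, were at or above 1 FPKM in both groups, and they summed to 9366 to 9790 FPKM in the libraries labelled CKO and 16524 to 18445 FPKM in those labelled WT. The sum is mostly Lyz2, at a mean of 6556 FPKM in the libraries labelled CKO and 15116 in those labelled WT, and other markers went the other way. Adgre1 averaged 778 FPKM in the libraries labelled CKO and 222 in those labelled WT. A gene was tested when it reached 1 FPKM in at least 3 libraries, with limma on log2(FPKM + 1), and called at a Benjamini-Hochberg adjusted p under 0.05. Of 9953 genes tested, the CKO-labelled libraries had 3038 at a higher level and 5031 at a lower one. With libraries scaled by their median ratio the counts were 4058 higher and 3874 lower. Against so many calls, the size of a difference and its direction say more than a call.

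Among the 9 genes, the C1q chains fell and the alternative pathway genes rose. C1qa, C1qb and C1qc were lower in the libraries labelled CKO, and C3, Cfb and Cfp were higher. C4b, Cd55 and Serping1 were too low to be tested. All 6 tested genes were thus called, 3 higher and 3 lower, where 30.5% of all tested genes were called higher, 50.5% lower and 81.1% in either direction. Cfb passed the filter on low values only through the libraries labelled CKO, so that it had to differ, and counts over the genes that passed support nothing. A log2 difference of at least 1 was reached upward by C3, Cfb and Cfp, as by 8.35% of all tested genes, and downward by C1qb and C1qc, as by 10% of them. In each of the 6 tested genes the CKO and WT values kept apart without overlap, in Cfb by the filter. This held for 82.5% of all tested genes. The values also kept apart in C4b, Cd55 and Serping1, which that share does not cover.

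**Figure D1:**
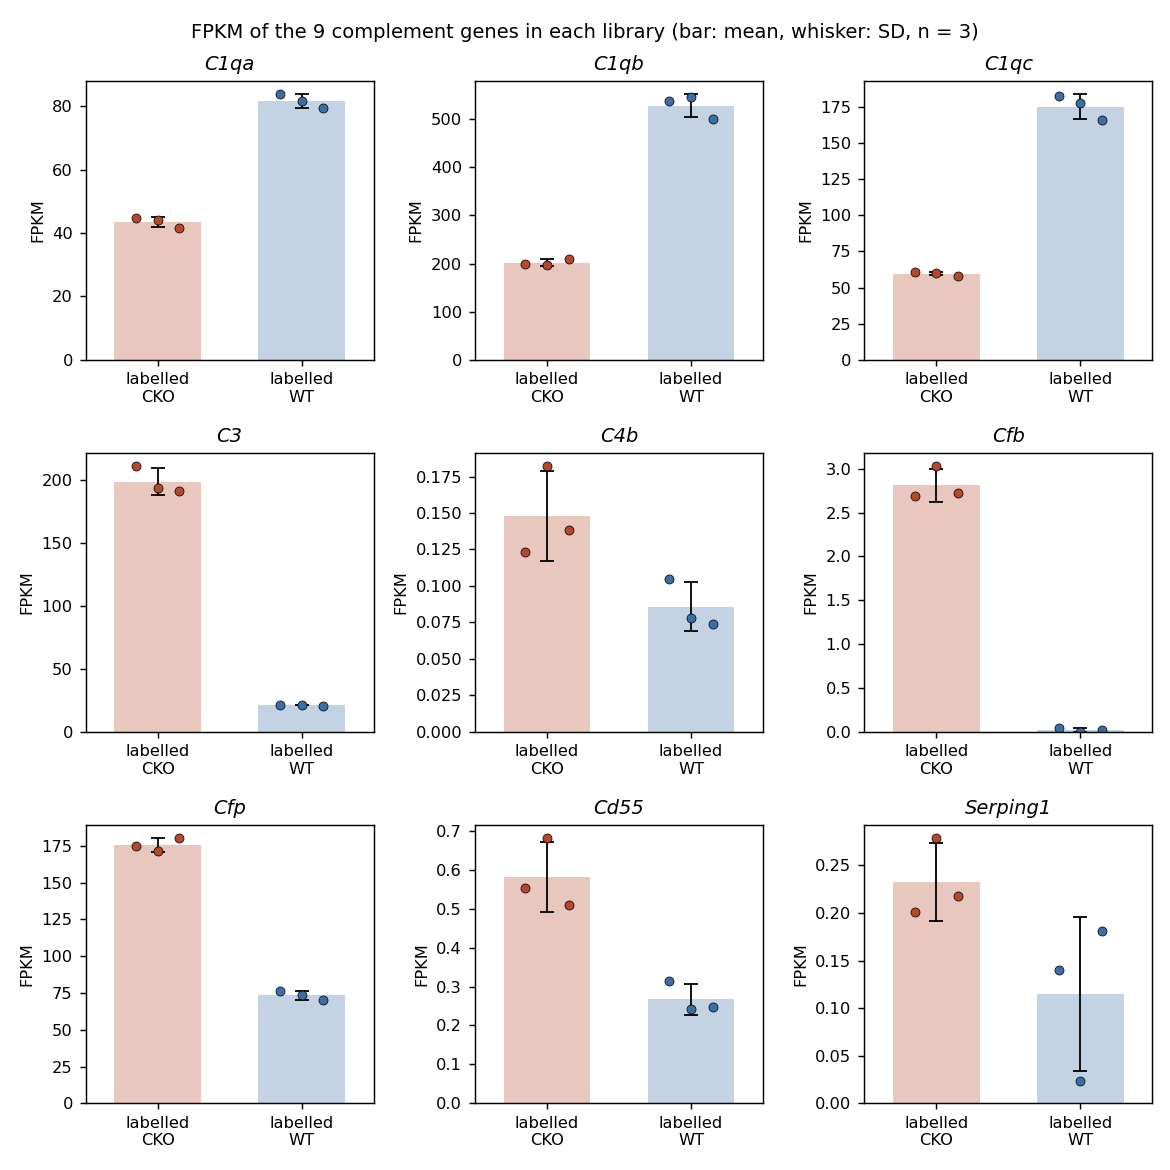
Each panel shows 1 gene, with FPKM on the vertical axis (starting at 0, with its own scale) and the 3 libraries labelled CKO left of the 3 labelled WT; points are libraries, bars means and whiskers SD. C1qa, C1qb and C1qc were lower and the other 6 genes higher in the libraries labelled CKO, with C4b, Cd55 and Serping1 below 1 FPKM in all 6 libraries.

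C1qb, which encodes the B chain of C1q, had the highest mean of the 9 genes in both groups. It read 199, 198 and 210.0 FPKM in the libraries labelled CKO, against 537, 546 and 501 FPKM in those labelled WT. The lowest library labelled WT stood more than double the highest labelled CKO. The log2 difference was -1.38 (SE 0.037, limma adjusted p = 2.24e-11). By mean FPKM, C1qb ranked 172nd of the 21936 genes in the libraries labelled CKO and 44th in those labelled WT. The gene lies on chromosome 4, 136880129 to 136886187 on the minus strand (mm10).

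C1qc, which encodes the C chain, had the largest decrease of the 3. It read 60.5, 59.7 and 58.3 FPKM in the libraries labelled CKO, against 182, 177 and 166 FPKM in those labelled WT. The 3 libraries labelled CKO lay within a few FPKM of each other, far under all 3 labelled WT. Its log2 difference was -1.54 (SE 0.037, limma adjusted p = 9.39e-12). C1qa, which encodes the A chain, had the smallest decrease. Its values were 44.6, 44.0 and 41.5 FPKM in the libraries labelled CKO, against 83.7, 81.6 and 79.5 FPKM in those labelled WT. The groups were again apart, by less than for the other chains, with a log2 difference of -0.90 (SE 0.036, limma adjusted p = 8.08e-10). In a bulk library, fewer cells that make a transcript and less of it in each cell cannot be told apart.

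The 3 chain genes stand side by side on the minus strand of chromosome 4, C1qc at 136889804 to 136893065 and C1qa at 136895917 to 136898803. No other listed gene overlapped them. Beyond them, the nearest listed genes were not read as expressed: Epha8 was at 0 in all 6 libraries and Ephb2 stayed under 0.01 FPKM. The stretch of 250 bases upstream of the RefSeq start sites of C1qb and C1qc, with the start of C1qc lying inside the GENCODE gene so that the window overlaps it, is shown because these neighbours fell together. The capitals mark GAGGAA or its reverse complement, the core bound by PU.1, a transcription factor of macrophages.
C1qb, chr4:136886201-136886450, minus strand, GRCm38.p6 (RefSeq): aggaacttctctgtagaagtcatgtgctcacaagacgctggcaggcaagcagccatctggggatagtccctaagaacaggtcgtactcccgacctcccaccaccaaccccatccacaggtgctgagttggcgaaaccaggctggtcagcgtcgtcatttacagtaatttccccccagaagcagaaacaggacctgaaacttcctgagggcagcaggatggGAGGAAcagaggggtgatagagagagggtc
C1qc, chr4:136892915-136893164, minus strand, GRCm38.p6 (RefSeq): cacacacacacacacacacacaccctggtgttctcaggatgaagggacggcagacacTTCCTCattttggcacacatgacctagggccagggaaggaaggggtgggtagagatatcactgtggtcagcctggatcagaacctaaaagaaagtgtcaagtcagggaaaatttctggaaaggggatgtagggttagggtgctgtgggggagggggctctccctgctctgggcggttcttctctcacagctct
In C1qb the match spans bases 30 to 25 upstream of the start, on the strand of the gene. In C1qc it spans bases 193 to 188, on the other strand. The same letters are found in 23.3% of 32851 RefSeq promoter windows of that length, so the match is a description and no evidence of binding. Spi1, which encodes PU.1, read 133, 137 and 136 FPKM in the libraries labelled CKO, against 136, 142 and 141 FPKM in those labelled WT.

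The balance among the chains also differed between the groups. This ratio within a library does not depend on how libraries are scaled. C1qc over C1qa was 1.36, 1.36 and 1.40 in the libraries labelled CKO, against 2.18, 2.18 and 2.09 in those labelled WT. C1qb over C1qa was 4.46, 4.50 and 5.06 in the libraries labelled CKO, against 6.42, 6.69 and 6.30 in those labelled WT. In both ratios every library labelled CKO lay under every one labelled WT, so that C1qa made up a larger part of the C1q transcripts in the libraries labelled CKO. C1qb over C1qc moved the other way and less, at 3.40 ± 0.176 in the libraries labelled CKO and 3.01 ± 0.0651 in those labelled WT (SD, n = 3 each). No test was run on the ratios. Together the 3 genes took 0.0380% ± 0.000392 of all reads in the libraries labelled CKO and 0.0998% ± 0.00431 in those labelled WT (SD, n = 3 each).

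**Figure D2:**
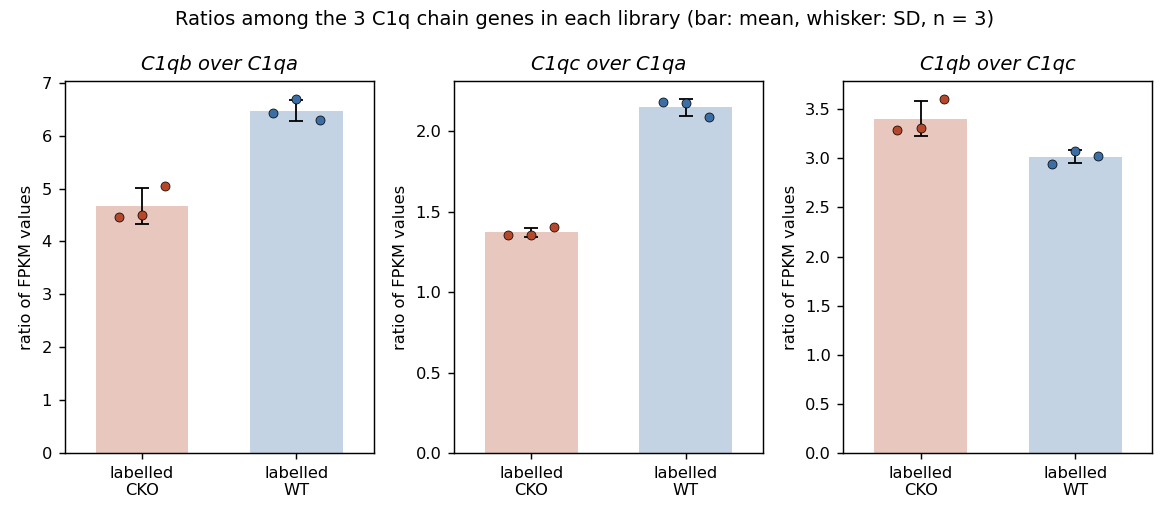
Ratios of FPKM values of C1qb over C1qa, C1qc over C1qa and C1qb over C1qc on vertical axes that start at 0, with the 3 libraries labelled CKO left of the 3 labelled WT; points are libraries, bars means and whiskers SD. C1qc over C1qa lay between 1.36 and 1.40 in the libraries labelled CKO and between 2.09 and 2.18 in those labelled WT.

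C3, the central protein of all complement pathways, had the largest difference on log2(FPKM + 1) of the 6 tested genes, although with 0.1 added in place of 1, or on recovered reads Cfb differed by more. It read 211, 194 and 192 FPKM in the libraries labelled CKO, against 21.2, 21.4 and 20.8 FPKM in those labelled WT. The libraries labelled WT were nearly level, and each one labelled CKO was many times higher, 9.42-fold as a ratio of means. The log2 difference was 3.17 (SE 0.039, limma adjusted p = 4.75e-14), the 137th highest of the 9953 tested genes. C3 took 0.102% of all reads in the libraries labelled CKO and 0.0109% in those labelled WT (means of 3 libraries). In level it was the second of the 9 genes in the libraries labelled CKO, where its range overlapped that of C1qb, and the fifth in those labelled WT.

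C3 lies on chromosome 17, 57203970 to 57228136 on the minus strand (mm10). The genes on either side did not share its size of difference. Gpr108 read 28.6 FPKM in the libraries labelled CKO and 29.5 FPKM in those labelled WT as means, with a log2 difference of -0.04 (limma adjusted p = 0.344). The next gene, Trip10, differed by 0.15 (limma adjusted p = 0.0134), and Tnfsf14, on the other side, by -0.68 (limma adjusted p = 1.04e-04). The 250 bases upstream of C3 are shown for the 1 match found there, TTGCNNAA in capitals, letters of the C/EBP family of factors, known to drive C3 in the acute phase.
C3, chr17:57228137-57228386, minus strand, GRCm38.p6 (RefSeq): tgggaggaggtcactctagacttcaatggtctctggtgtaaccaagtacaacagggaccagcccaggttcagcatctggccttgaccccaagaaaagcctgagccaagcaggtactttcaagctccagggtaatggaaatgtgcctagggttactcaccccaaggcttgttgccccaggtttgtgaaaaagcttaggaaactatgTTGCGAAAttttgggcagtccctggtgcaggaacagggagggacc
The match is TTGCGAAA, 45 to 38 bases upstream of the start, and TTGCNNAA is found in 9.56% of the 32851 windows. Both strands were also searched for TGCTGAC (MAF, 3.81% of windows), TTCNNNGAA (the GAS element of STAT factors, 7.02%), the ISRE element of interferon response (GAAA, any 2 bases, GAAA, 2.98%) and the NF-kB element (GGG, any 2 bases, TTTCC, 1.41%). None of these 4 lay in the windows of C1qb, C1qc, C3 or Cfp, which says only that these letters were not there. In Cd55, the other of the 5 genes with a RefSeq window, TGCTGAC was found 195 to 189 bases upstream. C1qa, C4b, Cfb and Serping1 were not matched.

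Cfp encodes properdin, the protein that stabilises the alternative pathway convertase and is made by monocytes, macrophages and neutrophils. It read 175, 171 and 180.3 FPKM in the libraries labelled CKO, against 76.6, 73.6 and 70.6 FPKM in those labelled WT. Every library labelled CKO was more than double every one labelled WT. The log2 difference was 1.24 (SE 0.035, limma adjusted p = 3.69e-11; chromosome X, 20925454 to 20931555, minus strand, mm10). The closest gene upstream, Elk1, read 4.05 FPKM in the libraries labelled CKO and 3.90 FPKM in those labelled WT as means (limma adjusted p = 0.418). Markers of other cells that make properdin went different ways beside it. The summed FPKM of 12 neutrophil markers was 88.8 to 102 in the libraries labelled CKO and 622 to 912 in those labelled WT. A mean of 1 FPKM was reached by 10 of the 12 in 1 group or both. S100a9 averaged 37.3 FPKM in the libraries labelled CKO and 425 in those labelled WT, whereas Mmp8 averaged 16.6 in the libraries labelled CKO and 7.07 in those labelled WT. Summed over 8 monocyte markers it was 538 to 581 in the libraries labelled CKO and 165 to 199 in those labelled WT, with all 8 at a mean of 1 FPKM or more in 1 group or both. This sum follows Hp, at 390.0 FPKM in the libraries labelled CKO and 14.1 in those labelled WT, while Chil3, at 38.8 in the libraries labelled CKO and 127 in those labelled WT, Ccr2 and Cd177 were lower in those labelled CKO. The part of either cell type in the Cfp difference was not tested.

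Cfb encodes factor B, the protease that joins C3b in the alternative pathway convertase. It read 2.69, 3.03 and 2.72 FPKM in the libraries labelled CKO, against 0.0384, 0 and 0.0212 FPKM in those labelled WT. In reads this was 130, 132 and 137 in the libraries labelled CKO and 2, 0 and 1 in those labelled WT. Near absence in the libraries labelled WT makes a ratio imprecise. As reads per library size the ratio was 140.0-fold, with an exact 95% interval of 47.6 to 682 that covers counting error only. The log2 difference of 1.90 (SE 0.064, limma adjusted p = 1.65e-10) understates so low a gene, since 1 was added to every FPKM. With 0.1 added the difference was 4.61, and on recovered reads with limma voom 6.83.

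Counting of Cfb is uncertain for a further reason. It lies on chromosome 17, 34856374 to 34862518 on the minus strand (mm10), and overlaps Gm20547, a gene of the same strand (34856412 to 34882042) that also overlaps C2. Of the exon bases of Cfb, 79.5% are exon bases of Gm20547 as well, and of those of C2, the protease of the classical convertase, 42.8%. Gm20547 was listed at 0 in all 6 libraries. How reads that match both genes were counted is not given in the sources used here. The levels of Cfb and C2 may therefore be too low, by the same rule in each library. C2 was below the filter, at 0.151, 0.285 and 0.479 FPKM in the libraries labelled CKO, against 0.0982, 0.0576 and 0.0775 FPKM in those labelled WT. Near Cfb, Nelfe differed by -0.19 and Ehmt2 by 0.03 on the log2 scale (limma adjusted p = 0.00722 and 0.425).

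The 3 remaining genes were barely detected. Cd55, which encodes a membrane protein that breaks up C3 convertases, read 0.553, 0.681 and 0.509 FPKM in the libraries labelled CKO, against 0.313, 0.241 and 0.247 FPKM in those labelled WT. That corresponds to 141 reads in all labelled CKO and 69 in all labelled WT. The ratio of reads per library size was 2.15 (exact 95% interval 1.6 to 2.9, counting error only). Without the filter on low values, the only fit that held it, Cd55 was called (log2 difference 0.32, limma adjusted p = 0.00644). Its antisense neighbour Gm16083 shares 102 of the 4853 exon bases of Cd55, and whether counting used strand is not given in the sources used here. Cd55b, a nearby copy known from mouse, was at 0 in all 6 libraries.

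Serping1, which encodes the C1 inhibitor, read 0.201, 0.279 and 0.217 FPKM in the libraries labelled CKO, against 0.140, 0.0240 and 0.181 FPKM in those labelled WT. These are 8, 10 and 9 reads in the libraries labelled CKO and 6, 1 and 7 in those labelled WT. The ranges did not overlap, but the highest WT and the lowest CKO library were close. The ratio of reads was 2.03 (exact 95% interval 1.03 to 4.19, counting error only), and the gene was not called without the filter (limma adjusted p = 0.155). Its neighbour Ube2l6, which encodes an enzyme of interferon-induced ISG15 conjugation, was well expressed, at 125 FPKM in the libraries labelled CKO and 23.6 FPKM in those labelled WT as means (log2 difference 2.36, limma adjusted p = 1.39e-11).

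C4b, which encodes the C4 that forms part of the classical convertase, read 0.123, 0.182 and 0.138 FPKM in the libraries labelled CKO, against 0.105, 0.0783 and 0.0738 FPKM in those labelled WT. It had 42 reads in all labelled CKO and 26 in all labelled WT, a ratio of 1.70 (exact 95% interval 1.02 to 2.89, counting error only), and was not called without the filter (limma adjusted p = 0.0562). C4a, a close copy of it in the mouse, was not analysed here, and how reads shared by the copies were counted is not given in the sources used here. For C4b, Cd55 and Serping1 permuting the labels exactly, on both sides, gave p = 0.1, the smallest that 3 libraries a group allow. C4b lies on chromosome 17 (34728380 to 34743882), Cd55 on chromosome 1 (130439027 to 130462744) and Serping1 on chromosome 2 (84765387 to 84775444), each on the minus strand (mm10).

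Liver and connective tissue cells also make C3, C4b, Cfb and Serping1, and their markers were read beside these genes. Of 8 hepatocyte markers 6 had no read in any library, among them Alb and Ttr, and the list summed to 0.314 to 0.761 FPKM in the libraries labelled CKO and 0.112 to 0.506 in those labelled WT. Of 7 fibroblast markers 6 stayed under 1 FPKM in every library. Their sum was 2.12 to 2.40 FPKM in the libraries labelled CKO and 0.760 to 1.09 in those labelled WT. In the libraries labelled CKO that sum is mostly Pdgfrb, whereas in those labelled WT Col1a1 had the highest mean. Col1a1 averaged 0.156 FPKM in the libraries labelled CKO and 0.390 in those labelled WT. By mean, Col1a2, Col3a1 and Pdgfra were also lower in the libraries labelled CKO, while Pdgfrb, Dcn and Lum were higher. Dcn averaged 0.574 FPKM in the libraries labelled CKO and 0.0607 in those labelled WT. The 5 mesothelial markers stayed under 1 FPKM throughout, with Msln, Krt19 and Wt1 at 0. Upk3b read 0.215, 0.110 and 0.207 FPKM in the libraries labelled CKO and 0 in those labelled WT. Lrrn4 averaged 0.0101 FPKM in the libraries labelled CKO and 0 in those labelled WT. The part of these cell types in the levels of C3, C4b, Cfb and Serping1 was not tested.

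By level, the 9 genes fell in another order in each group. In the libraries labelled CKO the order was C1qb, C3, Cfp, C1qc, C1qa, Cfb, Cd55, Serping1 and C4b, with mean FPKM of 202, 199, 176, 59.5, 43.4, 2.81, 0.581, 0.232 and 0.148. Only C1qb and C3 overlapped among neighbours in that order. In the libraries labelled WT it was C1qb, C1qc, C1qa, Cfp, C3, Cd55, Serping1, C4b and Cfb, with mean FPKM of 528, 175, 81.6, 73.6, 21.1, 0.267, 0.115, 0.0856 and 0.0199. There only Serping1 and C4b overlapped. C3 over C1qa was 4.58 ± 0.168 in the libraries labelled CKO and 0.259 ± 0.00453 in those labelled WT (SD, n = 3 each).

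The rest of the pathway was read from 5 lists of 51 other complement genes, of which 50 were analysed. Of these 20 passed the filter, 5 of them through 1 group only, and 10 had no read in any library. In the libraries labelled CKO 5 rose, 14 fell and 1 was not called, or 7 rose and 12 fell with median-ratio scaling. Among all 9953 tested genes 30.5% rose and 50.5% fell, or 4058 rose and 3874 fell with that scaling. Their median log2 difference was -0.47, beside -0.14 over all 9953 tested genes.

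Among the partners of C1q, C1ra went opposite to it. C1ra, which encodes the C1r protease, read 12.7, 14.0 and 12.7 FPKM in the libraries labelled CKO, against 1.58, 1.51 and 1.27 FPKM in those labelled WT (log2 difference 2.53, limma adjusted p = 1.42e-11). C1s1, which encodes C1s, read 2.20, 2.47 and 2.19 FPKM in the libraries labelled CKO, against 0, 0 and 0.0192 FPKM in those labelled WT, where it had a single read. It rose by 1.71 (limma adjusted p = 4.26e-10) and passed the filter only through the libraries labelled CKO. C1ra and C1s1 have close copies in the mouse, C1rb and C1s2, and reads shared between copies could have been split in counting; C1rb had 6 reads and C1s2 29 in all labelled CKO, against 0 and 1 in all labelled WT. C1ra thus rose while the 3 chains of C1q fell, whereas C1s1 had to be higher in the libraries labelled CKO by the filter. The ficolins, lectins that start the lectin pathway, passed the filter only through the libraries labelled WT, so that they had to be lower in those labelled CKO. Fcnb read 0.630 ± 0.220 FPKM in the libraries labelled CKO and 4.07 ± 0.465 in those labelled WT (SD, n = 3 each). Fcna read 0.688 ± 0.185 FPKM in the libraries labelled CKO and 1.45 ± 0.221 in those labelled WT (SD, n = 3 each). Their log2 differences were -1.64 and -0.54 (limma adjusted p = 3.92e-08 and 2.23e-04).

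Late components were nearly silent. Of 8 alternative and terminal components, C8g alone was tested, at 1.31 ± 0.372 FPKM in the libraries labelled CKO and 2.07 ± 0.407 in those labelled WT (SD, n = 3 each). Its call (log2 difference -0.42, limma adjusted p = 0.00742) was lost with quantile normalization and without the filter (adjusted p = 0.0767 and 0.120), with overlapping groups. Cfd, the protease that activates factor B, had no read in any library. Hc, which encodes C5, had 7 reads in each library labelled CKO and none in those labelled WT.

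All 5 tested genes in the lists of regulators were called lower, as were 50.5% of all tested genes. Of membrane regulators, Cr1l, the rodent inhibitor known as Crry, differed by -0.42 (limma adjusted p = 5.62e-06), and Cd59a, which blocks the membrane pore, by -0.73 (limma adjusted p = 3.25e-05). Cr1l, at 5.31 ± 0.137 FPKM in the libraries labelled CKO and 7.44 ± 0.0316 in those labelled WT, stood far above Cd55 in both. Cd109, a membrane protein of the thioester family of C3, differed by -1.60 (limma adjusted p = 3.15e-10), and passed the filter only through the libraries labelled WT, so that it had to be lower in those labelled CKO. Clu, which encodes clusterin, differed by -0.22 (limma adjusted p = 0.00859), a call lost with either rescaling (adjusted p = 0.214 and 0.463). C1qbp, a mitochondrial protein that can bind C1q, differed by -0.61 (limma adjusted p = 1.17e-06).

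**Figure D3:**
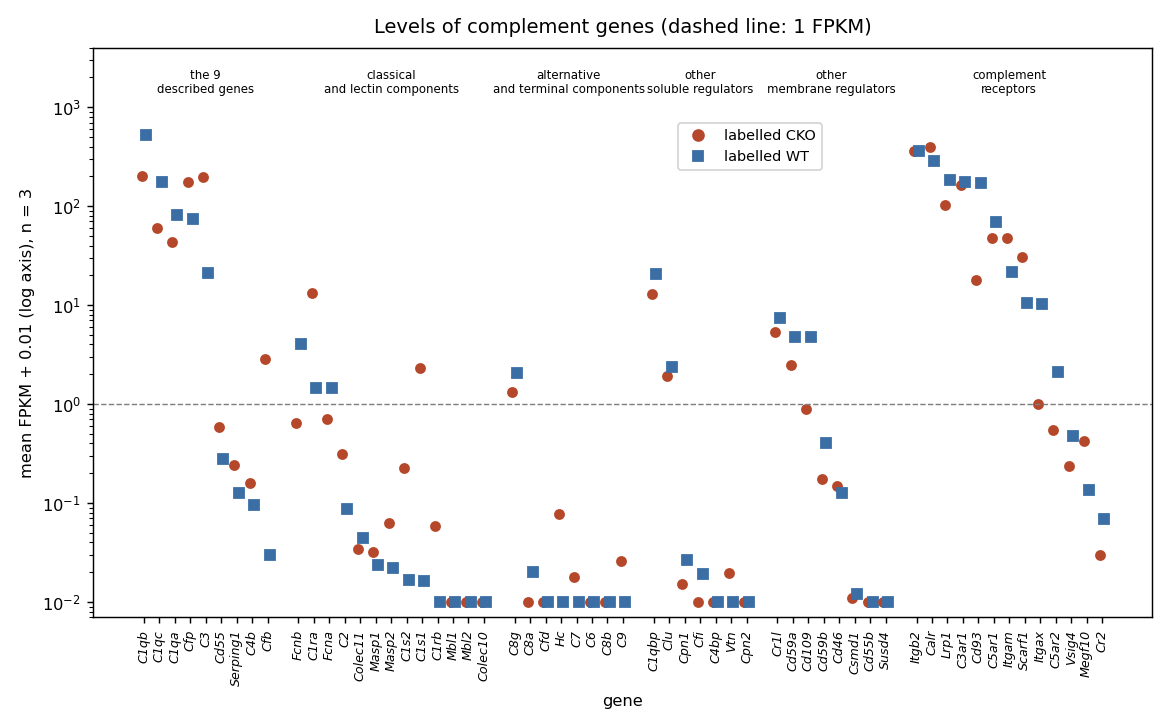
Mean FPKM of 3 libraries, with 0.01 added, on a log axis for the 9 genes and other complement genes by role; circles are the libraries labelled CKO and squares those labelled WT, and the dashed line is 1 FPKM. The C1q chains, C3, Cfp and several receptors stood above 10 FPKM in both groups, whereas C8g alone among the alternative and terminal components reached 1 FPKM.

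Of the 10 complement receptors tested 3 rose, 6 fell and 1 was not called, shares near the 30.5% higher and 50.5% lower among all tested genes. Among those that fell, C5ar2 passed the filter only through the libraries labelled WT, so that it had to be lower in those labelled CKO. Itgam, a chain of the C3 fragment receptor CR3, read 47.3 ± 1.42 FPKM in the libraries labelled CKO and 21.8 ± 0.729 in those labelled WT (log2 difference 1.08, limma adjusted p = 2.35e-10). Itgax, a chain of the related receptor CR4, read 0.999 ± 0.145 FPKM in the libraries labelled CKO and 10.2 ± 0.446 in those labelled WT (log2 difference -2.49, limma adjusted p = 1.73e-11). Itgb2, the chain that both receptors share, read 360 ± 5.92 FPKM in the libraries labelled CKO and 359 ± 0.977 in those labelled WT (SD, n = 3 each). It was not called (limma adjusted p = 0.899), but differed by 0.19 with median-ratio scaling and -0.28 with quantile normalization, both called. Cd93, a receptor first described as one for C1q, had the largest decrease on log2(FPKM + 1) of the tested genes in the lists. It read 17.8 ± 0.633 FPKM in the libraries labelled CKO and 170.1 ± 3.57 in those labelled WT (log2 difference -3.18, limma adjusted p = 1.97e-14). On recovered reads with limma voom Itgax fell by more, at -3.35 beside -3.25 for Cd93. Lrp1, which with calreticulin can act in uptake of C1q-tagged cells, differed by -0.82 and calreticulin itself (Calr) by 0.46 (limma adjusted p = 2.32e-09 and 2.80e-08). Scarf1, a scavenger receptor that binds C1q, rose by 1.44 (limma adjusted p = 1.30e-10). Of the receptor genes for the fragments C5a and C3a, C5ar1 differed by -0.52 and C3ar1 by -0.11 (limma adjusted p = 2.25e-07 and 0.00622). With median-ratio scaling C3ar1 differed by 0.08. C5ar2, lower by the filter as said above, read 0.54 ± 0.11 FPKM in the libraries labelled CKO and 2.09 ± 0.146 in those labelled WT (SD, n = 3 each).

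**Figure D4:**
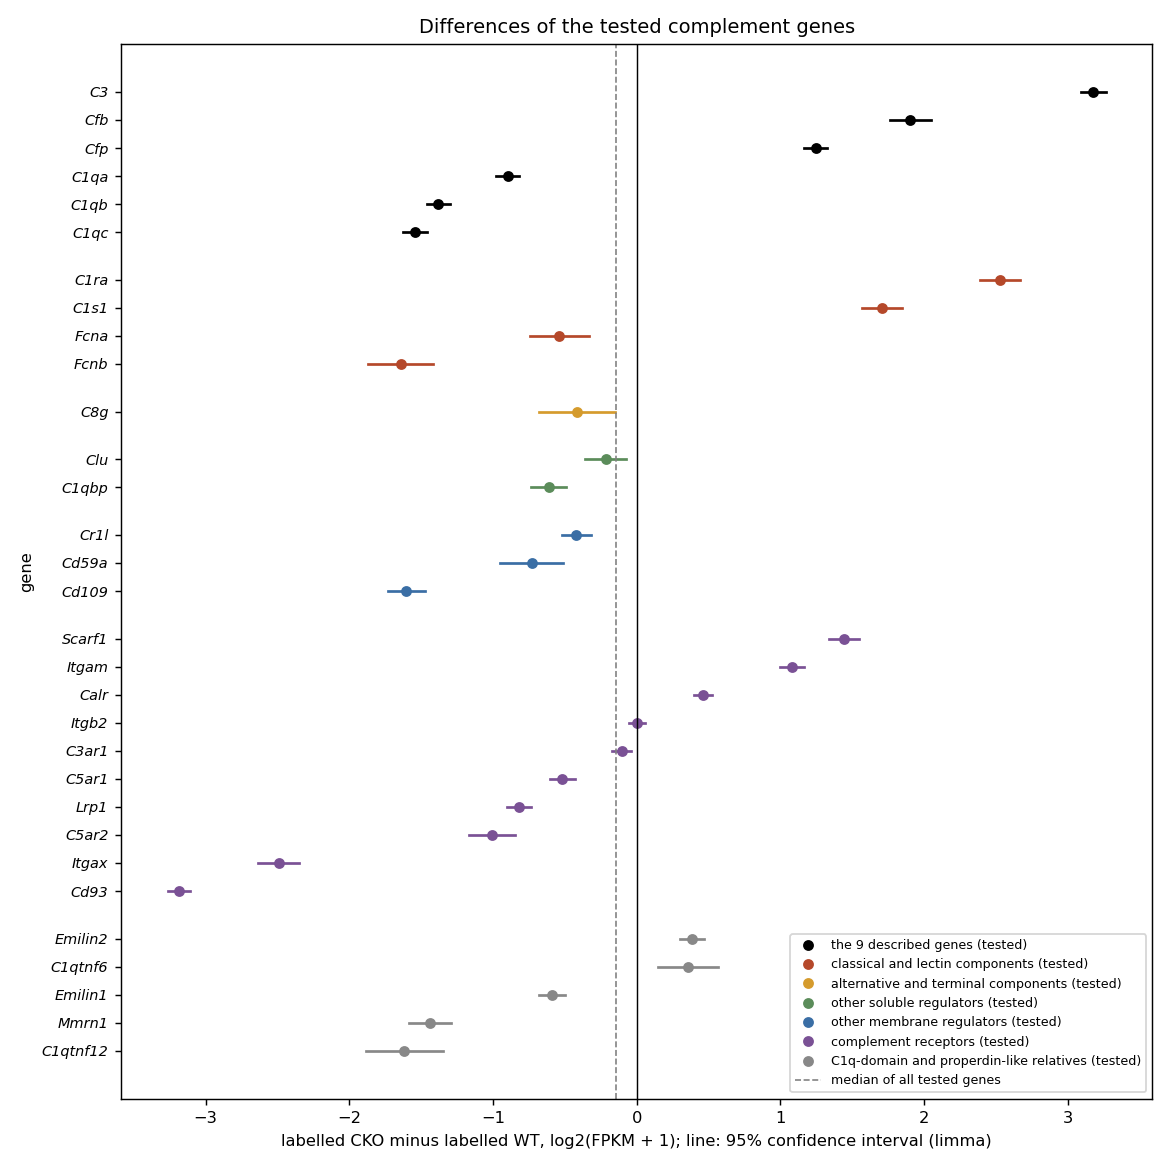
Differences between the libraries labelled CKO and labelled WT on log2(FPKM + 1) with 95% confidence intervals from limma, for the 6 tested of the 9 genes and the tested genes of each list; the solid line is 0 and the dashed line the median of all tested genes, -0.14. C3 and C1ra lie farthest to the right at 3.17 and 2.53, and Cd93 farthest to the left at -3.18.

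The genes whose profiles over the 6 libraries were closest to each of the 6 tested genes were found by distance between values of log2(FPKM + 1), each centred on its own mean. For C3 these were Jak2, at a distance of 0.0688, and Il15ra, at 0.128. The closest to C1qa were Nhlrc3 and Oxa1l (0.0568 and 0.0577), to C1qb Ube2c and Tbc1d2 (0.0644 and 0.0700), and to C1qc Sord and Ypel2 (0.0445 and 0.0874). For Cfb they were Fbxl5 and Glis3 (0.0486 and 0.0732), and for Cfp Sdc1 and Mocs1 (0.0362 and 0.0654). With 2 groups, such a distance mostly compares the size of 1 difference.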

How the data were processed

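The authors deposited 1 table of FPKM values per library, per the file headers. The submitters' processing notes name genome build mm10 and, without roles, featureCounts 1.6.2, HISAT2 2.1.0, GATK 4.0.11.0, fastp 0.19.3, DESeq2 1.22.1, Cufflinks and StringTie 1.3.4d. Multiplied by gene length, 100% of FPKM values were whole multiples of 1 read (tolerance 0.01 reads). The recovered reads served for depth, counting intervals and 1 alternative test. In these libraries 3 reads of a gene of 1 kb are worth 0.163 to 0.195 FPKM. Counting intervals and floors cover counting error only, since reads carried no molecular identifiers.

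Groups and replicate numbers came from the sample titles. The fit used limma 3.58.1 in R 4.3.3 (lmFit, eBayes with trend) on log2(FPKM + 1), with group as the only term and labelled CKO minus labelled WT as the contrast. It held the 9953 genes that reached 1 FPKM in 3 or more libraries, and Benjamini-Hochberg adjustment ran over all of them with a threshold of 0.05. The fit was run on simulated data, 3 libraries against 3, with 50 of 9778 genes changed at each of 1.25-, 1.5-, 2- and 4-fold. It recovered 83.7%, 98%, 100% and 100% of them, and 7.84% of its calls were genes left unchanged. How the fit does where most genes differ was not tested. Between libraries of a group, chi-square per degree of freedom was 2.16 to 3.18 over genes whose reads in the pair came to 20 or more, so no 2 libraries agreed within counting noise. Gene coordinates and overlaps are from GENCODE M21 (mm10), promoter windows from RefSeq (GRCm38.p6), matched by symbol for 5 of the 9 genes. Tables and exact tests used Python 3.11.15 with pandas 2.3.3 and scipy 1.17.1.

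The 9 genes, the lists and the tests were chosen with earlier results of these data known. All 9 genes are named with values, other complement genes from the lists, and the 2 genes closest in profile to each tested gene; neighbours within 50 kb, and genes below the filter, were named after their values were seen. The value of 1 gene in the lists is not reported here. Results were recomputed with quantile normalization, median-of-ratios scaling, a replicate block, limma without trend, limma voom on recovered reads, no filter, a filter on mean FPKM (5 or more), pseudocounts of 0.5 and 0.1, and without each library in turn while the tested genes were held.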

Additional observations from a re-analysis of the deposited data

How the results depend on the processing

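The 6 tested genes kept their direction and their call in every alternative that tested them. The log2 difference lay between -0.97 and -0.71 for C1qa, -1.51 and -1.20 for C1qb, -1.58 and -1.36 for C1qc, 3.13 and 3.35 for C3, 1.86 and 6.83 for Cfb and 1.19 and 1.43 for Cfp, with adjusted p of at most 5.18e-05. Cfb had no value at a mean FPKM of at least 5, where 3185 of the 6402 genes tested and 7 of the other complement genes were called lower. Without the filter, 9 of the other complement genes were called higher, as were 3355 of all 21936 genes. Median-of-ratios scaling moved the median log2 difference of all genes by 0.15. C3ar1 then differed by 0.078, and Itgb2 by -0.28 with quantile normalization, each with its sign turned and the cause not tested. With the replicate block 3018 genes were called higher and 5023 lower. The calls of the 6 tested genes did not change under the block, in which C4b, Cd55 and Serping1 were not fitted. Same-numbered libraries did not deviate together (correlations 0.0188, 0.0120 and -0.0388), and differently numbered ones gave -0.0566 to 0.0454. What the numbers mean is not given in the sources used here, so whether the numbers pair the libraries is not known. With 1 library left out, the log2 difference in C1qb over C1qa lay between -0.53 and -0.44 and that in C1qc over C1qa between -0.67 and -0.64, and recovered reads gave -0.47 and -0.65. Low depth limits Cfb, C4b and Serping1, with 3, 26 and 14 reads in all 3 libraries labelled WT.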

Other observations

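Genes that share the globular C1q domain but are no complement components were read as a separate list of 17. Of these 5 were tested, 2 rose and 3 fell in the libraries labelled CKO, where 30.5% of all tested genes rose and 50.5% fell. In this list 4 had no read in any library, and the median log2 difference of those tested was -0.59, beside -0.14 over all tested genes. Emilin2, a glycoprotein of the extracellular matrix, read 45.9 ± 2.08 FPKM in the libraries labelled CKO and 34.9 ± 0.506 in those labelled WT (log2 difference 0.38, limma adjusted p = 2.47e-06). Its relative Emilin1 read 12.3 ± 0.168 FPKM in the libraries labelled CKO and 19.0 ± 0.811 in those labelled WT (log2 difference -0.59, limma adjusted p = 1.29e-07). The third matrix protein of the family tested, Mmrn1, read 0.626 ± 0.0795 FPKM in the libraries labelled CKO and 3.41 ± 0.215 in those labelled WT (log2 difference -1.44, limma adjusted p = 2.32e-09). It passed the filter only through the libraries labelled WT and so had to be lower in those labelled CKO. The secreted C1qtnf12 read 1.81 ± 0.602 FPKM in the libraries labelled CKO and 7.50 ± 0.198 in those labelled WT (log2 difference -1.62, limma adjusted p = 1.99e-07). C1qtnf6 rose by 0.36 (limma adjusted p = 0.00439), a call lost without the filter (adjusted p = 0.0795). All SD are over n = 3 libraries.

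Other markers also moved. The summed FPKM of 6 dendritic cell markers was 20.4 to 23.9 in the libraries labelled CKO and 1.67 to 2.07 in those labelled WT. In the libraries labelled CKO nearly all of it came from Ccr7, which averaged 21.1 FPKM there and 0.742 in those labelled WT. The other 5 were under 1 FPKM in every library. For 5 B cell markers the sum was 1.02 to 1.82 FPKM in the libraries labelled CKO and 2.11 to 3.77 in those labelled WT. It was 0.547 to 0.811 in the libraries labelled CKO and 3.98 to 4.69 in those labelled WT for 7 T and NK cell markers. Cd4 made up most of that sum, at a mean of 0.483 FPKM in the libraries labelled CKO and 3.94 in those labelled WT. The 5 endothelial markers summed to 5.29 to 6.09 in the libraries labelled CKO and 6.70 to 7.05 in those labelled WT, mostly Kdr. The 4 smooth muscle markers summed to 2.72 to 3.15 in the libraries labelled CKO and 0.797 to 1.39 in those labelled WT, mostly Acta2. Their part in the complement genes was not tested.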
